A study of Mus musculus with 4 samples.

Results

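The genes that restrain entry into S phase were followed in cardiac mesenchymal progenitors (CMPs) carrying the reprogramming factors. They were 4 INK4 inhibitors (Cdkn2a, Cdkn2b, Cdkn2c and Cdkn2d), 2 CIP/KIP inhibitors (Cdkn1a and Cdkn1b) and 3 pocket proteins (Rb1, Rbl1 and Rbl2), chosen by their names in the scanner files, with every probe of each. They made up 9 of the 16656 genes measured and were read by 15 probes, all well above background on all 4 arrays. The CMPs were Sca-1+ cells from adult C57BL/6 mouse hearts, taken from the atria by the study's methods. The control was CMPs without any treatment, and OSKM-CMPs carried Oct3/4, Sox2, Klf4 and c-Myc on Sendai virus vectors and were sampled at days 4, 6 and 8. Each condition was measured on 1 single-colour array. The methods moved transduced cells to a reprogramming medium, so the factors, the virus, the medium and the time in culture cannot be told apart from a single untreated array.

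INK4 proteins bind Cdk4 and Cdk6 and block their pairing with D cyclins, and CIP/KIP proteins bind cyclin-Cdk complexes and inhibit Cdk2. The pocket proteins RB (from Rb1), p107 (from Rbl1) and p130 (from Rbl2) hold E2F transcription factors in check until cyclin-dependent kinases phosphorylate them. Cdkn2a encodes p16INK4a and, from another start and reading frame, p19ARF, which stabilises p53 by holding Mdm2. These inhibitors are known as barriers to reprogramming and as markers of cell cycle exit and senescence.

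RefSeq promoter windows of assembly GRCm38.p6, running from 250 bases before to 50 bases after a gene start, were found for 8 of the 9 genes, with 11 windows in all. The windows printed here, with capitals marking E2F and GC box letters on either strand, are those of the INK4 genes that lay past 2-fold at day 8 and for Rbl1, a known E2F target. Cdkn2a has 2 starts that are 12427 bases apart on chromosome 4, the upstream one known for p19ARF and the downstream one for p16INK4a. All of these windows are on the minus strand and are written 5′ to 3′.
Cdkn2a upstream start, chr4:89294570-89294869: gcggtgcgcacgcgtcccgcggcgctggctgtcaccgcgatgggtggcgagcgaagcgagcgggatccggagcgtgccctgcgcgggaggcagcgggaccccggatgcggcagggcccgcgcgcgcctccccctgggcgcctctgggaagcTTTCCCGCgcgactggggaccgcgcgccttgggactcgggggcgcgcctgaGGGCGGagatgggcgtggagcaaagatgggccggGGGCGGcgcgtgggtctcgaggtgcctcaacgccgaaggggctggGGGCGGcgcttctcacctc
Cdkn2a downstream start, chr4:89282143-89282442: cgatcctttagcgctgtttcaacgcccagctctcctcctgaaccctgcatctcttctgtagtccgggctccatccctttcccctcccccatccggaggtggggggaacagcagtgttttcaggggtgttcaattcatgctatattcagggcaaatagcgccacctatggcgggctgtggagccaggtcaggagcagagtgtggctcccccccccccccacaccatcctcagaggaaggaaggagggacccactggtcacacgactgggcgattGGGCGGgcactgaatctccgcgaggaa
Cdkn2b, chr4:89310983-89311282: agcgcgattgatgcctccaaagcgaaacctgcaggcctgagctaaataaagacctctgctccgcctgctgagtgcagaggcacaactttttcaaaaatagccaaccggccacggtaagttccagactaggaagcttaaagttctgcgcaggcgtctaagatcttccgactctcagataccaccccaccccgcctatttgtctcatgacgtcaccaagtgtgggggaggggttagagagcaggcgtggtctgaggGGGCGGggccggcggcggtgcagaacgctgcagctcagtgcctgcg
Cdkn2d, chr9:21291160-21291459: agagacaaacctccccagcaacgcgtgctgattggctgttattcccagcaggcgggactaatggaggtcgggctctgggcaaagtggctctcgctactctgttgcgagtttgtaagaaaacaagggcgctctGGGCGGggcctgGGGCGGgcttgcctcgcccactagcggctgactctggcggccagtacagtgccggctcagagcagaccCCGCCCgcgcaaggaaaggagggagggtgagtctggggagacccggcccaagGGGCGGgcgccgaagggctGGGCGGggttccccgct
Rbl1, chr2:157204485-157204784: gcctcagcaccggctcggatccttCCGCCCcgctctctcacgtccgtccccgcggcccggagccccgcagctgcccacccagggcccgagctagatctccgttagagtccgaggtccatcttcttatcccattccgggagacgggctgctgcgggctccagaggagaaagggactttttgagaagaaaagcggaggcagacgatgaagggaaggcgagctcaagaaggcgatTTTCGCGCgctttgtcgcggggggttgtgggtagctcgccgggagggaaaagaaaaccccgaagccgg

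The E2F letters searched were TTTGGCGC, TTTCCCGC, TTTGCCGC and TTTCGCGC, and they were in 2 of the 11 windows, against 2.26% of all 32851 windows. Both are printed above: TTTCCCGC began 99 bases before the upstream start of Cdkn2a, and TTTCGCGC began 18 bases before the start of Rbl1. The GC box, GGGCGG, was in 9 of the 11 windows and in 35.7% of all windows. The CCAAT box was in 4 of the 11 and in 37.4% of all, and the CHR letters TTTGAA or TTCGAA were in 2 of the 11, those of Cdkn2b and Rbl2, and in 19.2% of all. The only overlap between motifs in these windows was of 2 bases, between a CCAAT box and the GC box at the downstream start of Cdkn2a. The windows of Cdkn2a and Cdkn2d, which differed from the control in opposite directions, both held GC boxes.

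Values below are processed Cy3 signals in arbitrary units, or log2 levels relative to the 75th percentile of the same array. The value after ± is the SD of the array error model, which covers error within an array and not the spread between cultures. In this RNA from whole cultures, fewer cells of a type and less RNA per cell cannot be told apart.

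Cdkn2a stood furthest above the control of the 9 genes at every day. Its probe at chr4:88920405-88920464 (mm9), A_55_P2008437, had a signal of 16445 in the control, and 57449, 64658 and 63019 on days 4, 6 and 8. Its probe A_55_P2008438, at chr4:88920543-88920602, had signals of 931, 3487, 3924 and 3786 in the same order. On both, the 3 OSKM arrays lay close together and far above the control. The mean of the probes was 3.63-fold, 3.90-fold and 3.74-fold the control on those days, log2 differences of 1.86, 1.96 and 1.90 ± 0.14. The steps among days 4, 6 and 8 were within 2 errors, so nearly all of the difference was present at the first sampled day. Both probes lie within 198 bases and are assigned by the files to 1 RefSeq transcript. Their exons were not annotated here, and p16INK4a and p19ARF messages were not separated.

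Cdkn2b, which encodes p15INK4b, a TGF-β responsive inhibitor of Cdk4 and Cdk6, had the same course with a smaller step. Its probes lie 31673 bases from those of Cdkn2a on chromosome 4 (mm9). The probe A_55_P1988183 (chr4:88952276-88952335) read 5371, 10538, 12540 and 11681 from the control to day 8, and A_55_P1979526 (chr4:88952720-88952779) read 897, 1989, 2147 and 1995. Again the control was the lowest of the 4 arrays and the OSKM arrays differed little among themselves. The gene was 2.09-fold, 2.27-fold and 2.08-fold the control on days 4, 6 and 8 (log2 differences of 1.06, 1.18 and 1.06 ± 0.14). These values sit at the 2-fold line. Scaled to the array median instead, they were 0.92, 1.05 and 0.79.

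Cdkn2d, which encodes p19INK4d, an inhibitor whose level is known to vary over the cell cycle, lay furthest below the control of the 9 genes. The signal of its single probe, at chr9:21092934-21092993, was 6527 in the control and 2182, 1905 and 1869 at days 4, 6 and 8. The control was 2.98-fold, 3.57-fold and 3.69-fold above these days, log2 differences of -1.58, -1.84 and -1.88 ± 0.20. As with Cdkn2a, the step from the control to day 4 was beyond 2 errors and the later steps were not.

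Cdkn2c, which encodes p18INK4c, took a course of its own, low at day 4 and back near the control by day 8. The signal of its probe, at chr4:109333508-109333567, was 1365 in the control and 673, 1047 and 1391 over days 4, 6 and 8. The difference from the control was -1.02, then -0.44, then -0.05, each ± 0.20, and under quantile normalization without and with normexp the first became -0.96 and -0.89, short of 2-fold, and the last turned to 0.02 and 0.03. Its day 8 level was 0.97 above day 4 on the log2 scale, a larger difference than that of 94.8% of all genes between those arrays. The INK4 family therefore held a pair of genes above 2-fold, 1 below it throughout and 1 below it only at day 4.

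**Figure D1:**
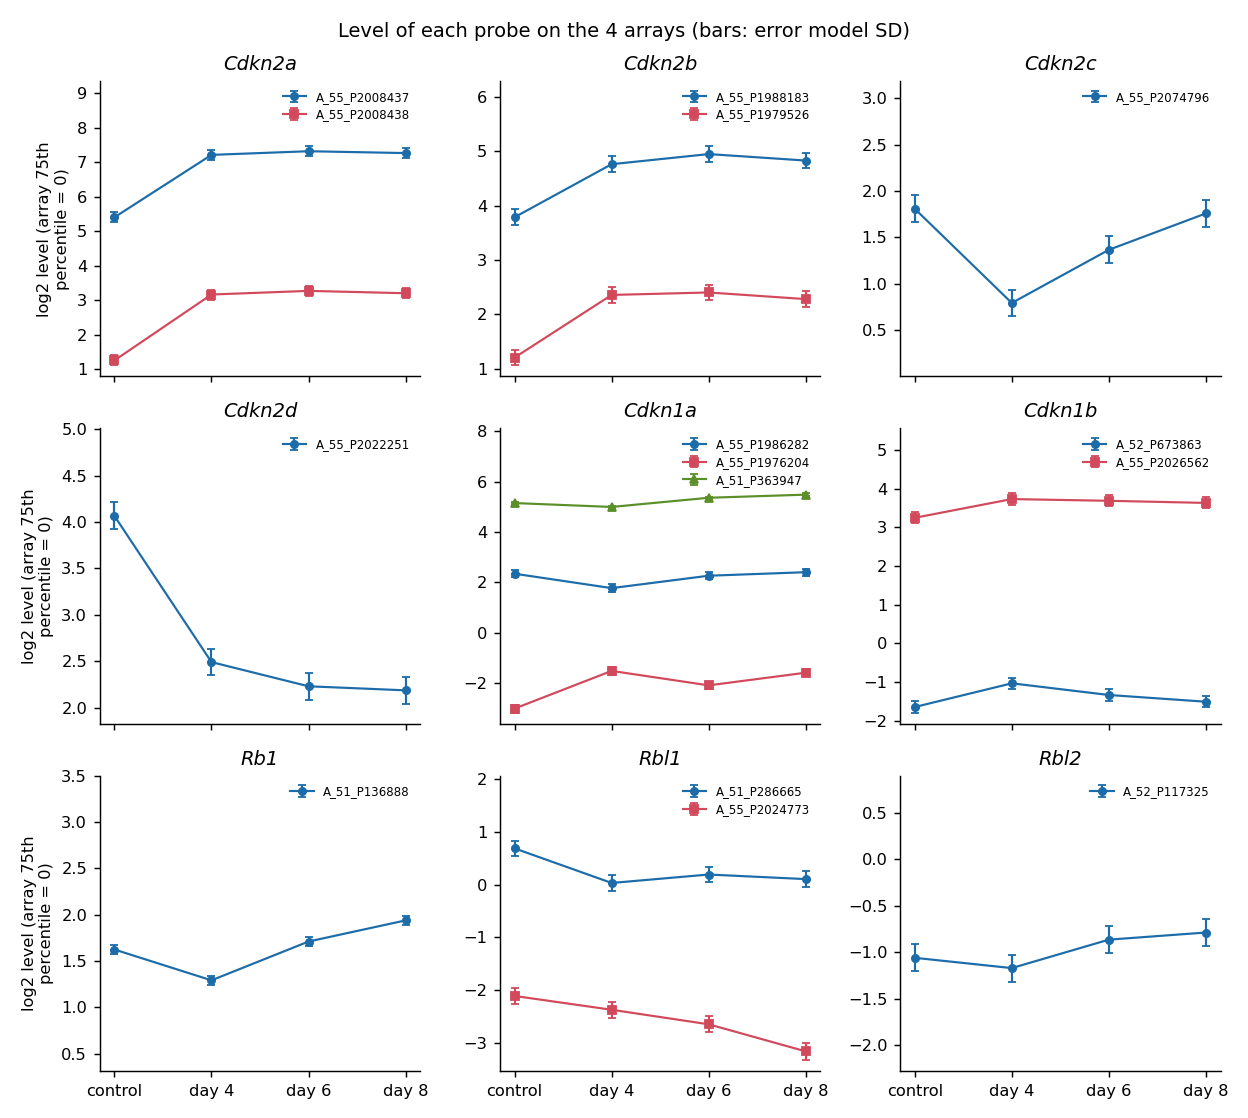
The log2 level of each probe (y axis, 0 is the 75th percentile of the array; each panel has its own range) on the control array and the arrays of days 4, 6 and 8 (x axis), 1 panel per gene, with bars for the SD of the error model. The probes of Cdkn2a and of Cdkn2b step up together by day 4 and stay level, Cdkn2d steps down, and Cdkn2c dips at day 4.

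Cdkn1a encodes p21, the inhibitor that p53 induces, and its 3 probes did not give the same answer. The probe printed in 10 spots, A_51_P363947 at chr17:29237377-29237436, read 13789 in the control and 12357, 16646 and 18339 over the 3 days. It was below the control at day 4 (-0.15 on the log2 scale) and above it at days 6 and 8 (0.21 and 0.33). Its single spots ran from 13114 to 14479 in the control (median 13766) and from 11827 to 12676 at day 4 (median 12381, 9 spots). At day 6 they ran from 15606 to 17461 (median 16794), and at day 8 from 16807 to 19007 (median 18580). The spots of the control and day 4 did not overlap with each other or with those of the later days, while days 6 and 8 overlapped.

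The probe A_55_P1986282, at chr17:29227986-29228045, lies at the 5′ end of a transcript variant and read 1975, 1326, 1950 and 2173. It was also lowest at day 4 (-0.57 ± 0.20), and at days 6 and 8 it lay within 2 errors of the control. The dim probe A_55_P1976204, at chr17:29235299-29235358, read 48, 136, 96 and 137 and was 2.82-fold, 1.90-fold and 2.69-fold the control on the 3 days. The mean of the 3 probes was 0.26, 0.35 and 0.61 ± 0.10 at days 4, 6 and 8, a level 1.52-fold that of the control at day 8 that rests in part on the dimmest probe. With the brightest probe alone, the sign at day 4 was negative. Scaled to the array median, the gene values were 0.11, 0.22 and 0.34 at days 4, 6 and 8.

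Cdkn1b encodes p27, an inhibitor of cyclin E-Cdk2 complexes. Its bright probe, A_55_P2026562 at chr6:134875424-134875483, read 3706 in the control and 5173, 5246 and 5109 at days 4, 6 and 8, and its dim probe, A_52_P673863 at chr6:134873606-134873665, read 124, 190, 161 and 144. Both were lowest in the control. The gene lay 0.55, 0.38 and 0.26 above the control on days 4, 6 and 8 (log2, ± 0.15), all under 2-fold and the last within 2 errors. Scaled to the array median, the day 8 value was -0.01.

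Cdkn1c, which encodes p57, the remaining CIP/KIP inhibitor and an imprinted gene, was not among the 9 genes but is given beside them. Its signal was 104 in the control, well above background, and 5648, 5578 and 2802 at days 4, 6 and 8. These were 54.5-fold, 51.5-fold and 25.6-fold the control. Within the CIP/KIP family, the 2-fold line was thus passed by p57 and by neither p21 nor p27 at the gene level.

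Rb1 was read by a probe printed in 10 spots, A_51_P136888 at chr14:73595408-73595467. Its mean signal was 1201 in the control and 951, 1330 and 1575 over the 3 days. The spots ran from 1137 to 1229 in the control (median 1213) and from 852 to 1011 at day 4 (median 962). At day 6 they ran from 1252 to 1384 (median 1344), and at day 8 from 1454 to 1658 (median 1588). Day 4 was the lowest and day 8 the highest of the 4 arrays with no overlap of their spots with the others. Relative to the control the log2 differences were -0.33, 0.09 and 0.31 ± 0.06. The day 6 value was within 2 errors of the control and was -0.05 scaled to the array median, and the day 8 value was 0.05 on that scale.

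**Figure D2:**
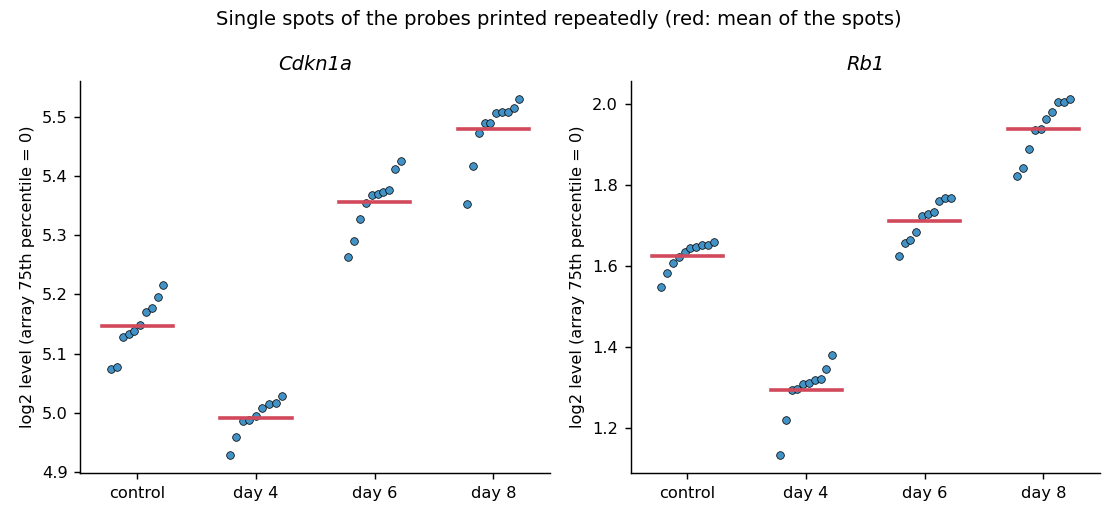
Log2 level (y axis, 0 is the 75th percentile of the array) of the single spots of the Cdkn1a and Rb1 probes that were printed in 10 spots, on each array (x axis; the position of a spot within its column has no meaning), with a red line at their mean. In both genes the day 4 spots are the lowest and day 8 has the highest mean, and the spots share 1 RNA sample per array.

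Rbl1, which encodes p107, was lower at every day. Its probe A_51_P286665, at chr2:156972143-156972202, read 628, 397, 464 and 442 from the control to day 8. Its probe A_55_P2024773, at chr2:157000761-157000820 and assigned to another RefSeq transcript, read 90, 75, 65 and 46. The first probe reached its lower level by day 4, whereas the second was lowest at day 8, with log2 differences of -0.58 and -1.05 there. The gene value was -0.46, -0.52 and -0.82 on the 3 days (± 0.15), and the step from the control to day 4 was the only step between neighbouring levels beyond 2 errors.

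Rbl2, which encodes p130, the pocket protein known for resting cells, had signals of 187, 173, 223 and 238 on its probe at chr8:93647120-93647179. All steps between its neighbouring levels were within 2 errors. The differences from the control were -0.11, 0.20 and 0.27 ± 0.21. At this precision no change of Rbl2 was detectable, and none of the pocket proteins passed 2-fold by its gene value at any day, except Rbl1 at day 8 (-1.08) when arrays were scaled to their median.

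**Figure D3:**
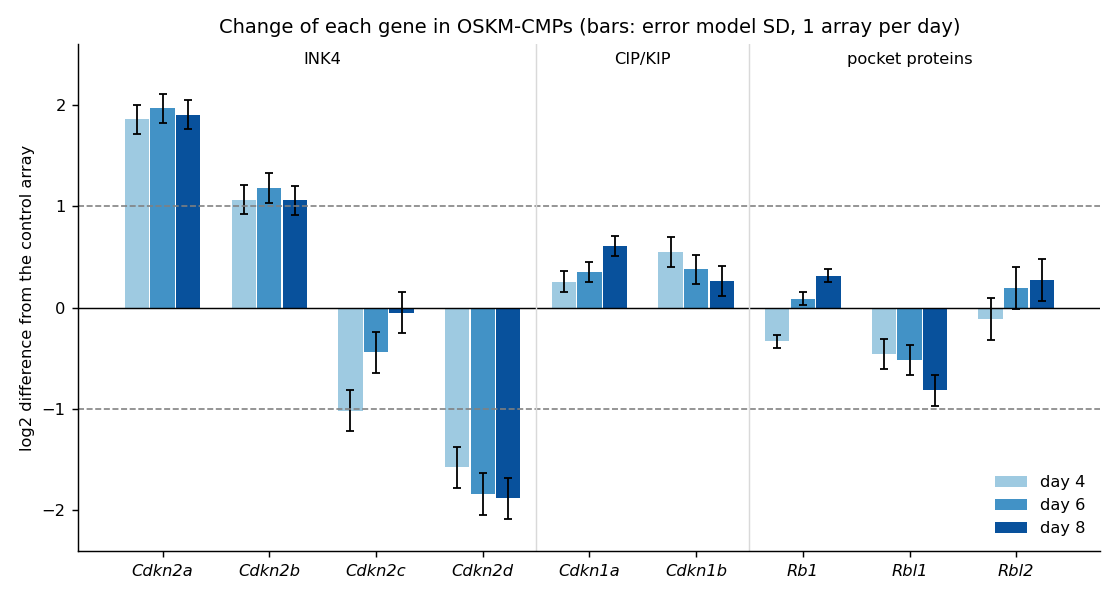
Log2 difference of each gene from the control array (y axis) at days 4, 6 and 8, grouped by family, with bars for the SD of the error model and dashed lines at 2-fold. Cdkn2a and Cdkn2b stand above the upper line on all days, Cdkn2d stands below the lower line on all days, and Cdkn2c reaches it at day 4.

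At least 2-fold higher than the control were 2 of the 9 genes on each of the 3 days, Cdkn2a and Cdkn2b each time. Over all genes the share was 12.1%, 13.0% and 14.4% on days 4, 6 and 8. At least 2-fold lower were 2 genes at day 4 (Cdkn2c and Cdkn2d) and 1 at days 6 and 8 (Cdkn2d), where the share of all genes was 9.57%, 11.5% and 11.6%. With 9 genes, 1 gene moves the share by about as much as the share over all genes, and nothing particular to the group is read from these counts. The median size of the difference at day 8, regardless of sign, was 0.61 for the 9 genes and 0.50 for all genes. At day 8, 6.9% of all genes lay above Cdkn2a and 5.0% lay below Cdkn2d.

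Between OSKM arrays none of the 9 genes differed by 2-fold in either direction. Of all genes, 2.83% were at least 2-fold higher and 2.64% lower at day 6 than at day 4, 2.43% and 1.01% at day 8 than at day 6, and 4.92% and 4.10% at day 8 than at day 4. Beyond 2 errors, Cdkn2c, Rb1 and Cdkn1a were higher at day 8 than at day 4, by 0.97, 0.65 and 0.35, and Rbl1 was lower by a log2 difference of -0.36. The Rbl1 value rests on its dim probe (-0.79 ± 0.22), while the bright one gave 0.07 ± 0.20. For Cdkn1a the bright probe gave 0.49 ± 0.07 and the dim one -0.07 ± 0.21. With the levels of each gene set in order, 9 of the 27 steps between neighbouring arrays were beyond 2 errors. When the error was the spread between spots pooled over all probes, dim ones included, 4 were. The share over all genes was not computed, so nothing particular to the 9 genes is read from these counts. Of these 9 steps, 2 belonged to Cdkn1a and 2 to Rb1, and Cdkn1b and Rbl2 had none. Both Cdkn1a steps rest on its dimmest probe. From the control to day 4 that probe rose 2.82-fold, while both brighter probes fell (-0.57 ± 0.20 and -0.15 ± 0.07). From day 6 to day 8 only the dimmest probe moved beyond 2 errors.

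**Figure D4:**
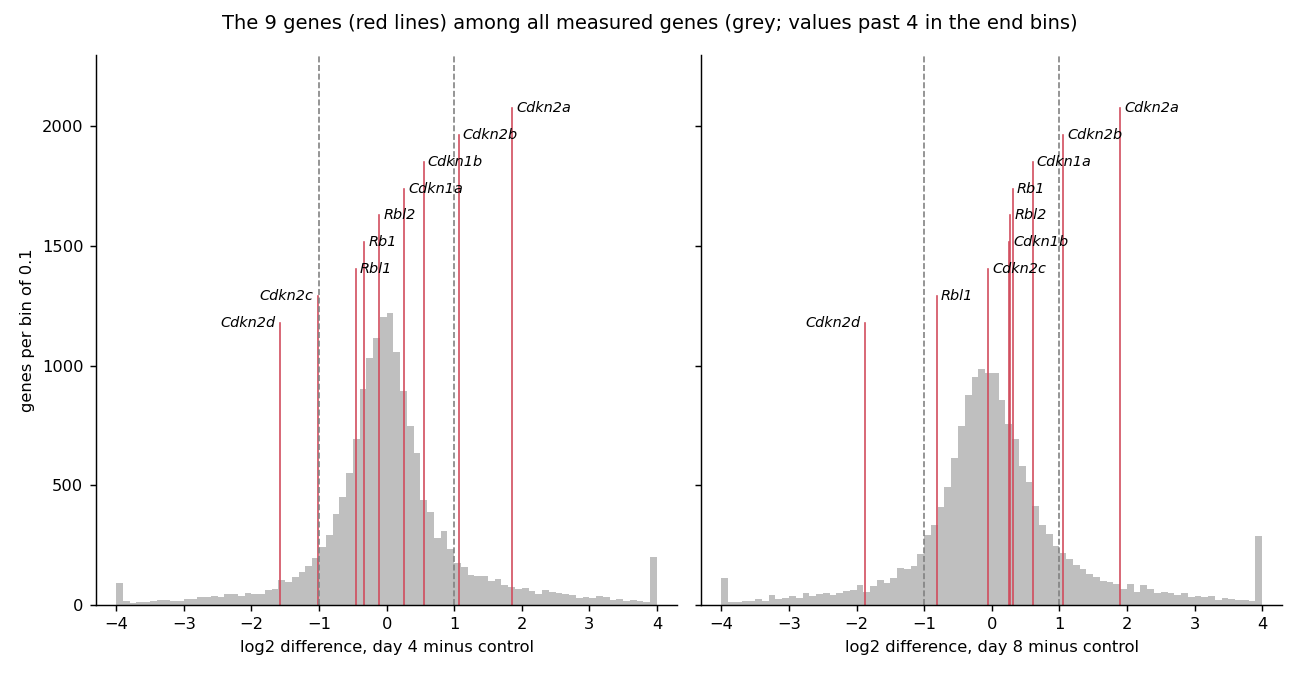
Number of genes (y axis) by log2 difference from the control (x axis, bins of 0.1) at day 4 and day 8 over all 16656 genes, with red lines at the 9 genes and dashed lines at 2-fold. Most of the 9 genes sit in the body of the distribution, while Cdkn2a lies in the upper tail and Cdkn2d in the lower tail.

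Over the log2 differences of the 3 days, the other genes nearest to Cdkn2a were Trp53i11, Fam185a and Adam23, at Euclidean distances of 0.098, 0.115 and 0.115. Nearest to Cdkn2d were Plcg2, Cdc45, a replication fork helicase subunit, and Eya4, at 0.048, 0.056 and 0.069. Within a distance of 0.5 lay 186 other genes for Cdkn2a and 171 for Cdkn2d, against 248 to 3360 for each of the remaining 7 genes. By 1 minus Pearson's r over the 4 arrays, none of these 6 genes stayed among the nearest.

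The 2 kinases that INK4 proteins bind lay on opposite sides of the control, beyond 2 errors, at days 4 and 6. At day 8 Cdk4 was within 2 errors of the control. Cdk4 had log2 differences of 0.54, 0.47 and 0.19 ± 0.12 at days 4, 6 and 8, and Cdk6 had -0.99, -0.65 and -0.74 ± 0.21. Among 12 measured cyclins and kinases of G1, 0 were at least 2-fold higher and 3 at least 2-fold lower at day 8, with a median of -0.22. Of the D cyclins, which pair with Cdk4 and Cdk6, Ccnd1 had -1.55, -1.60 and -1.34 ± 0.20, while Ccnd2 had -0.26 ± 0.20 and Ccnd3 had 0.01 ± 0.14 at day 8. Cdk2, the kinase that CIP/KIP proteins inhibit, had -0.87, -1.06 and -1.41 ± 0.21, and Ccna2, a cyclin that pairs with it, had -2.22 at day 8.

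Of 10 E2F and DP factors, which include those that pocket proteins bind, E2f2 alone was 2-fold higher at day 8 (1.01) and 2 were 2-fold lower, E2f1 (-1.28), an activator of S phase genes, and E2f8 (-2.37), a repressor. Over all genes, 14.4% were 2-fold higher and 11.6% were 2-fold lower at that day. The list median was -0.28. E2f4, a usual partner of p107 and p130, had -0.35 ± 0.21 at day 8. The MuvB core, which forms the DREAM complex with p107 or p130, was listed with its later partners, and the 8 genes had a median of -0.46. The core genes Lin9, Lin37, Lin52, Lin54 and Rbbp4 had -0.65, -0.06, 0.15, -0.26 and -0.57 at day 8, none past 2-fold. The genes 2-fold lower were Foxm1 (-2.99) and Mybl2 (-2.63), which bind MuvB outside the DREAM complex.

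The genes that E2F controls lay below the control almost throughout. Of 44 measured E2F target genes, 18, 29 and 38 were at least 2-fold lower on days 4, 6 and 8, and 0 were 2-fold higher at any day. The median was -0.83, -1.25 and -1.69 on the 3 days, where the median of all genes was -0.01, -0.03 and -0.03. Tk1, thymidine kinase, had -3.18 at day 8, and Mcm5, a helicase subunit, and Chaf1b, a histone chaperone, had -2.71 and -2.74. The 11 measured proliferation markers, 3 of them Plk1 (-3.52), Cenpa (-3.22) and Ccnb1 (-3.03), were all 2-fold lower at days 6 and 8, with a median of -2.45 at day 8.

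**Figure D5:**
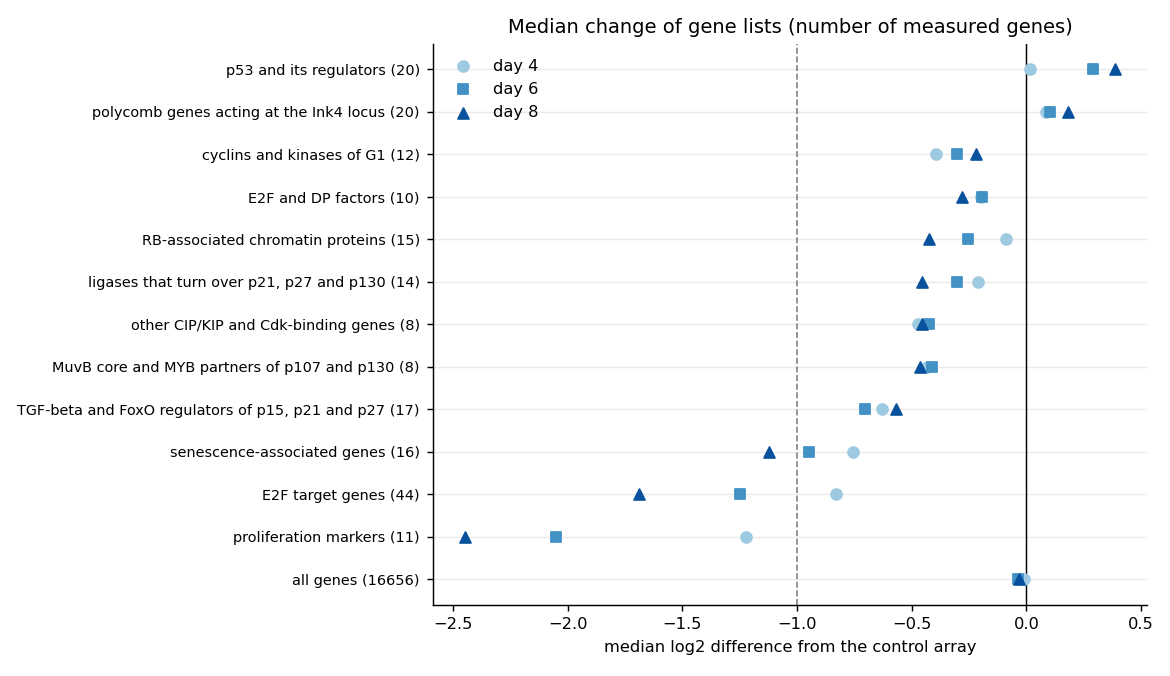
Median log2 difference from the control (x axis) of the measured genes of each list (y axis, number of genes in brackets) at days 4, 6 and 8, with a dashed line at 2-fold lower. Of the lists drawn, the E2F target genes and proliferation markers lie farthest to the left at each day and have lower medians at day 8 than at day 4, and the p53 list lies slightly to the right.

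Trp53, whose product p53 induces p21, had 0.23, 0.11 and -0.19 ± 0.14, and Mdm2, the ligase that p19ARF binds, had 0.00, 0.43 and 0.42 ± 0.20. A list of 20 genes of p53, its regulators and its targets had 5 genes 2-fold higher at day 8 and 0 lower, with a median of 0.39. Of the genes well above background in the control, the largest positive differences were of Atm (1.69), a kinase that activates p53, and of Trp53inp1 (1.63) and Sesn1 (1.36), which are p53 targets. The most negative were of Chek2 (-0.79), another such kinase, Ppm1d (-0.72), a phosphatase that opposes p53, and Gadd45a (-0.62), a p53 target. A list of 20 genes acting at the Ink4 locus holds polycomb genes, known to silence it, and the demethylases Kdm6a (0.72 at day 8) and Kdm6b (0.43), which oppose polycomb. In it 0 genes were 2-fold higher and 1 was 2-fold lower at day 8, Ezh2 (-1.25), a histone H3 methyltransferase. Bmi1, a repressor of Cdkn2a, had 0.82 ± 0.14, Jarid2 had 0.64, Phc2 had -0.66 and Cbx2 had -0.57, and the median of the list was 0.18, which turned to -0.09 when arrays were scaled to their median.

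Of 17 regulators of p15, p21 and p27 in the TGF-β and FoxO pathways, 2 were 2-fold higher and 4 lower at day 8, with a median of -0.57. Among them, Myc, a repressor of Cdkn1a and Cdkn2b, had -2.65, -2.90 and -3.08 over the 3 days, and Tgfb1 had -1.98 and Smad7 -1.92 at day 8. In the other direction, the transcription factors Foxo1, Sp1 and Foxo3 had 1.04, 0.52 and 0.38 at day 8. Whether the mouse Myc probe also reads the vector's c-Myc was not tested. A list of ligase genes for p21, p27 and p130, which also holds Cks1b and Pcna, had a median of -0.45. In it 3 of 14 genes were 2-fold lower, Cdc20 (-3.17), Cks1b (-1.22) and Pcna (-1.03). The RB-associated chromatin proteins had -0.42, with 1 of 15 2-fold lower, Dnmt1 (-1.20). Skp2, which marks p27 for degradation, had -0.12 ± 0.20 at day 8.

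Senescence-associated genes lay on both sides of the control. Of 16 measured, 3 were 2-fold higher at day 8, among them Gdf15 (1.05), and 8 were 2-fold lower, with a median of -1.12. Lmnb1, whose loss is known from senescent cells, had -1.25, -2.02 and -2.17 ± 0.06, whereas Il6, which senescent cells commonly secrete, had -2.55 at day 8. The remaining Cdk-binding genes outside the 9 had a median of -0.46 over 8 genes, with Cdkn3 (-3.50), Cks2 (-1.86) and Cks1b (-1.22) 2-fold lower and Cdkn1c 2-fold higher.

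Markers of cell types also differed between the arrays. All 12 markers of mesenchymal progenitors and fibroblasts were well above background on every array. At day 8, 3 of them were 2-fold higher, among them Ly6a (2.69), which encodes Sca-1, 2 were 2-fold lower, Thy1 (-1.78) and Eng (-1.19), and the median was -0.18. Of 8 adipocyte markers, 3 were well above background in the control and 8 at day 8, with a summed level of 5.0 and 351 in units of the array's 75th percentile, and all 8 were 2-fold higher at day 8. The summed level of 8 measured leukocyte markers stayed between 3.26 and 3.29, with 1 of them 2-fold higher (Cd68, 1.56 ± 0.42) and 1 2-fold lower (Tyrobp, -2.84 ± 1.47) at day 8. Endothelial markers went from 8 to 4 of 8 well above background and from 2.07 to 1.15 in summed level. Of 6 measured cardiomyocyte markers, 2 were well above background in the control and 5 at day 8, where 3 were 2-fold higher and 1 lower, Tnnt2 (-1.60), which makes up most of their summed level. Of the pluripotency genes Pou5f1, Sox2 and Zfp42 were not well above background on any array. The part of these cell type markers in the values of the 9 genes was not tested.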

How the data were processed

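RNA of CMPs was measured on 4 Agilent mouse 8x60K arrays, 1 per condition, on 1 slide in 1 scan, from 250 ng of RNA each. The authors' scanner files, made with Feature Extraction 10.7.3.1 by their header (9.5.3 in the processing notes), hold background-subtracted Cy3 intensity with an error and flags for every spot. The deposited table of normalized values, made in GeneSpring, equals the log2 processed intensity shifted by a constant per array.

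Control and outlier spots were left out (87 to 106 outliers an array), and log2 intensity was averaged over the spots of 55675 probes, each array's 75th percentile (a signal of 388 to 411) being subtracted. Another 6 probes had no kept spot on some array. On each array 56.6% to 59.6% of probes exceeded background clearly. The 35540 probes that did so on at least 1 array were kept and averaged per gene. RefSeq names (GRCm38.p6) were matched through accessions for 26753 probes, symbols for 3824 and synonyms for 639, leaving 24459 unnamed. Probe positions are the files' own, on mm9, and were not placed in exons. Errors combine the Feature Extraction error model of both arrays (median 0.204 for a gene between the control and day 8). With 1 array per condition no test was made. Spots of a probe share an RNA sample, and the number of arrays limits the precision.

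The 9 genes and the 12 pathway and 6 marker lists were chosen with earlier results of these data known. Some genes stand in more than 1 list, among them Pcna, Cks1b, Dnmt1, Ezh2 and Mybl2, so the lists are not separate observations. Named were the 9 genes and, in each list, up to 3 genes with the largest rise and up to 3 with the largest fall at day 8, given that they were above background in the control and at day 8 and kept their direction on all 3 days. Trp53 and Mdm2 fall outside this rule and were planned as partners of the 9 genes. E2f4, Skp2, Cdk6, Ccnd2, Ccnd3, Kdm6b, Cd68, Tyrobp and the MuvB core genes other than Lin9 also fall outside it and were named after their values were seen. A few items are not reported here. The code was tested on simulated data. Alternatives were normexp (offset 50) followed by quantile normalization, the latter alone, scaling to array medians, the authors' log2 table, no filter or a stricter filter on dim probes, a floor, only the brightest probe, 1.5-fold as the threshold, and the spread between spots as the error, over all probes or, chosen after seeing the data, over those well above background. Python 3.11.15, numpy 2.4.6, pandas 2.3.3, matplotlib 3.10.9, R 4.3.3 and limma 3.58.1 were used.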

Additional observations from a re-analysis of the deposited data

How the results depend on the processing

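No paired analysis was possible because the 4 conditions were measured on single arrays. There were 216 recomputed differences of the 9 genes from the control (9 genes, 3 days and 8 settings). Of these, 192 stayed within 1 error of the value reported, and 23 moved by more, 13 of them when arrays were scaled to their median. The remaining 1 was counted as reversed: Cdkn1a at day 4 was -0.15 by its brightest probe. Other values changed sign without being counted so. Cdkn2c at day 8 turned to 0.02 and 0.03 under quantile normalization without and with normexp, within 1 error. On the median scale, Cdkn1b at day 8 turned to -0.01 and Rb1 at day 6 to -0.05, both counted as moved by more. The array median moved the median of all genes at day 8 from -0.03 to -0.30 and the share of 2-fold calls that were higher from 55.3% to 40.1% there. With it, Cdkn2b fell under 2-fold at days 4 and 8, leaving 1 gene higher on each, and Rbl1 joined Cdkn2d at day 8, making 2 lower. Cdkn2b was also under 2-fold at day 4 by its brightest probe (1 gene higher), Cdkn2c at day 4 under both quantile settings (1 gene lower), and a 1.5-fold threshold added Cdkn1a (3 higher) and Rbl1 (2 lower) at day 8. Neighbouring levels apart numbered 4 in place of 9 with the spread between spots pooled over all probes. Pooled over probes well above background only, a choice made after that count had been seen, they numbered 10. With the array median, the list medians at day 8 were -0.72 for the remaining Cdk-binding genes, -0.49 for G1 cyclins and kinases, -0.55 for E2F and DP factors, -0.73 for MuvB and its partners, -1.95 for E2F targets, 0.12 for p53, -0.087 for polycomb, -0.84 for TGF-β and FoxO, -0.72 for ligases, -0.69 for RB-associated proteins, -1.39 for senescence and -2.71 for proliferation. E2F targets were -1.18 and ligases -0.23 under normexp, ligases -0.24 under quantile normalization, senescence -0.80 with no filter on dim probes, and proliferation -2.79 by the brightest probe. The cause was not tested.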
